A study of Mus musculus with 42 samples.

Results

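Wounds of diabetic db/db mice on day 7 after wounding were compared with untreated skin on 10 microarrays, out of 42 arrays in the series. The 5 wound arrays are those labelled with the anti-ragweed antibody, the control treatment, and with the time point 7d. The 5 skin arrays are those labelled untreated, at baseline on day 0. A db/db mouse is deficient in the leptin receptor, overeats, and becomes obese and diabetic. The wounded animals were db/db females, 10 to 12 weeks old, with a full-thickness wound of 6 mm on the back that received 50 µg of the control on days 0, 2, 4 and 6. The methods call that control an Fc protein and the labels call it an antibody to ragweed. Per the methods, a circle of 2 mm of skin round the wound was taken on day 7. The methods do not say which tissues of the wound and its edge it held, and all were measured together. The labels give the strain of all arrays as C57BL/6, while the methods list the db/db mice under the strain name BKS.Cg-Dock7m Leprdb/+ +/J. For the untreated mice the labels give neither the genotype nor the sex nor the age. The 4 wounds labelled anti-ragweed and 24hr, from db/db females given a single dose, were used for comparison with an earlier time. Lean dbm wounds are named in the design text, but none of the 9 groups of arrays holds them.

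A skin wound heals in overlapping phases. Neutrophils enter first, drawn by CXC chemokines, and are followed by macrophages, which clear debris and feed repair. Keratinocytes at the edge switch from making the outer barrier to a migrating state marked by keratins 6 and 16, while fibroblasts fill the gap with granulation tissue, a new matrix of collagen and vessels that is later remodelled. In diabetic mice these phases are slow and inflammation persists.

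Before the results, 1 array has to be set apart. In untreated replicate 5 the genes of the hair shaft and inner root sheath had a mean log2 level of 8.73, against 3.89 to 4.04 on the other 13 arrays. Krt25, an inner root sheath keratin, was at 13.14 there and at 2.30, 2.33, 2.51 and 2.48 in untreated replicates 1 to 4. Tyr, the pigment enzyme of melanocytes, was at 9.15 there against 3.16 to 3.26, and Shh, a signal of growing follicles, at 9.98 against 3.35 to 3.81. Genes of growing follicles and of the pigment cells that serve them were thus high on this array alone of the 14. It also had the lowest level of adipocyte genes of the 5 untreated arrays, with Lep at 7.59 against 11.89 to 12.71, and the highest level of cell cycle genes, 8.19 against 6.41 to 7.25. Lepr, the gene of the leptin receptor, was at 8.46 there against 5.67 to 6.15. Its correlation with the other untreated arrays over all probe sets was 0.941 to 0.947, while each of those 4 reached 0.992 or 0.993 with another untreated array. The 5′ probe sets of Actb and Gapdh, which lose signal as RNA breaks down, averaged 11.72 on it, 12.85 to 13.13 on the other untreated arrays and 12.95 to 13.18 on day 7. With all 5 untreated arrays this 5′ level was higher on day 7 by 0.38 on the log2 scale, p = 0.0635 in an exact 2-sided permutation test, where the smallest p possible is 0.00794. Results are therefore given with this array, and a part of them also without it. A comparison with untreated skin that is given once uses all 5 untreated arrays and may change without this array. The untreated arrays carry sample numbers of another range than the wounds, so a batch and the group cannot be told apart. Nor can any difference in genotype, strain, sex or age between the untreated and the wounded mice.

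**Figure D1:**
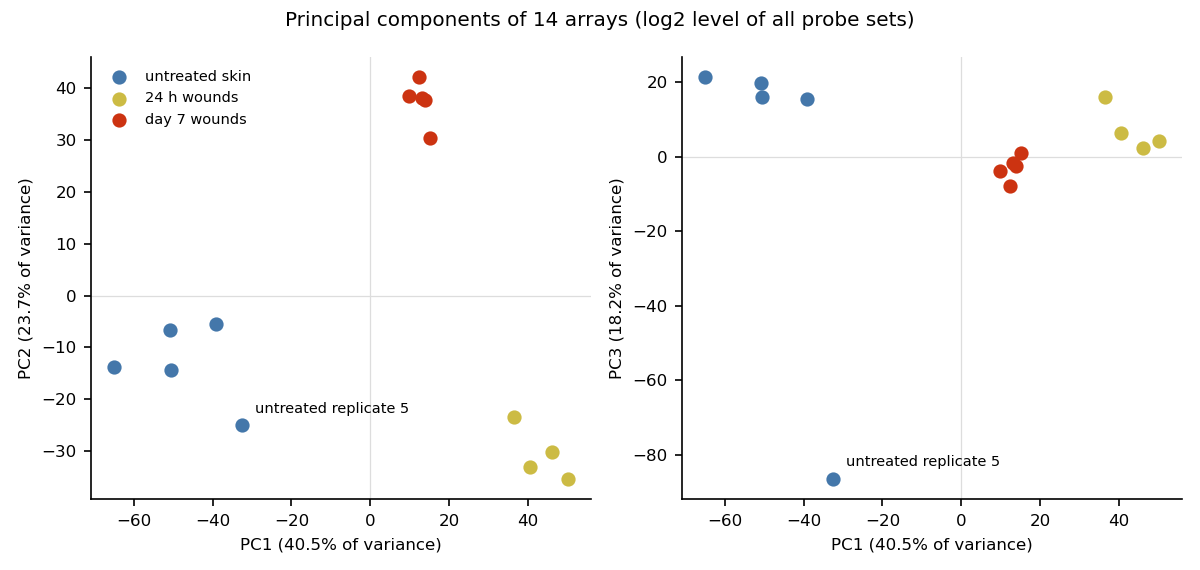
Principal components of the 14 arrays, from the log2 levels of all probe sets, with the first component against the second (left) and the third (right); each point is 1 array. Day 7 wounds lie apart from both other groups on the second component (30.5 to 42.2, all others below 0), and untreated replicate 5 lies alone on the third (-86.4).

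On day 7, 1344 of 20672 probe sets (6.50%) were higher than in untreated skin and 1429 (6.91%) were lower, at 1.5-fold or more and an adjusted p under 0.05. Without untreated replicate 5 these counts were 1606 (7.77%) and 1943 (9.40%), and 2565 of the 2773 calls were kept in the same direction. The median log2 change over all probe sets was 0.04, and 0.05 without that array. Beside the 24 h wounds, 1517 probe sets (7.34%) were higher on day 7 and 1260 (6.10%) lower. In both comparisons the same 5 day 7 arrays were used. Levels below are log2 values of the authors' RMA intensities, in which 1 unit is 2-fold, and changes are differences of mean log2 levels with their SE. The Y-linked genes lay at 2.32 to 3.52 on all 14 arrays, and the upper end of this range is taken as the background of the arrays.

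The largest rises were those of Krt6b, Mmp13, Sprr1b, 2610528A11Rik, S100a9, Cxcl5, Stfa2l1, Sprr2d, Cxcl3, Krt16, Saa3 and Cthrc1, in this order. Of these, Cxcl5 and Cxcl3 were at background on every untreated array, and Mmp13 and 2610528A11Rik on 4 of 5. The largest falls were smaller and were led by Hamp2, Retn, Scd3, Ckmt2, Lce1m, Wfdc21, Ifitm6, Retnla, Cldn8, Lepr, Mylk4 and Pck1. All these rises and falls passed the threshold with each of the 10 arrays left out in turn. Beside 24 h the largest rises by the same rule were those of Lrrc15, C1qtnf3, Prss35, Myh3, Rptn and Ccn3, and the largest falls those of Acod1, Slfn4, Cxcl10, Ifit1bl1, Rsad2 and Ccl3.

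**Figure D2:**
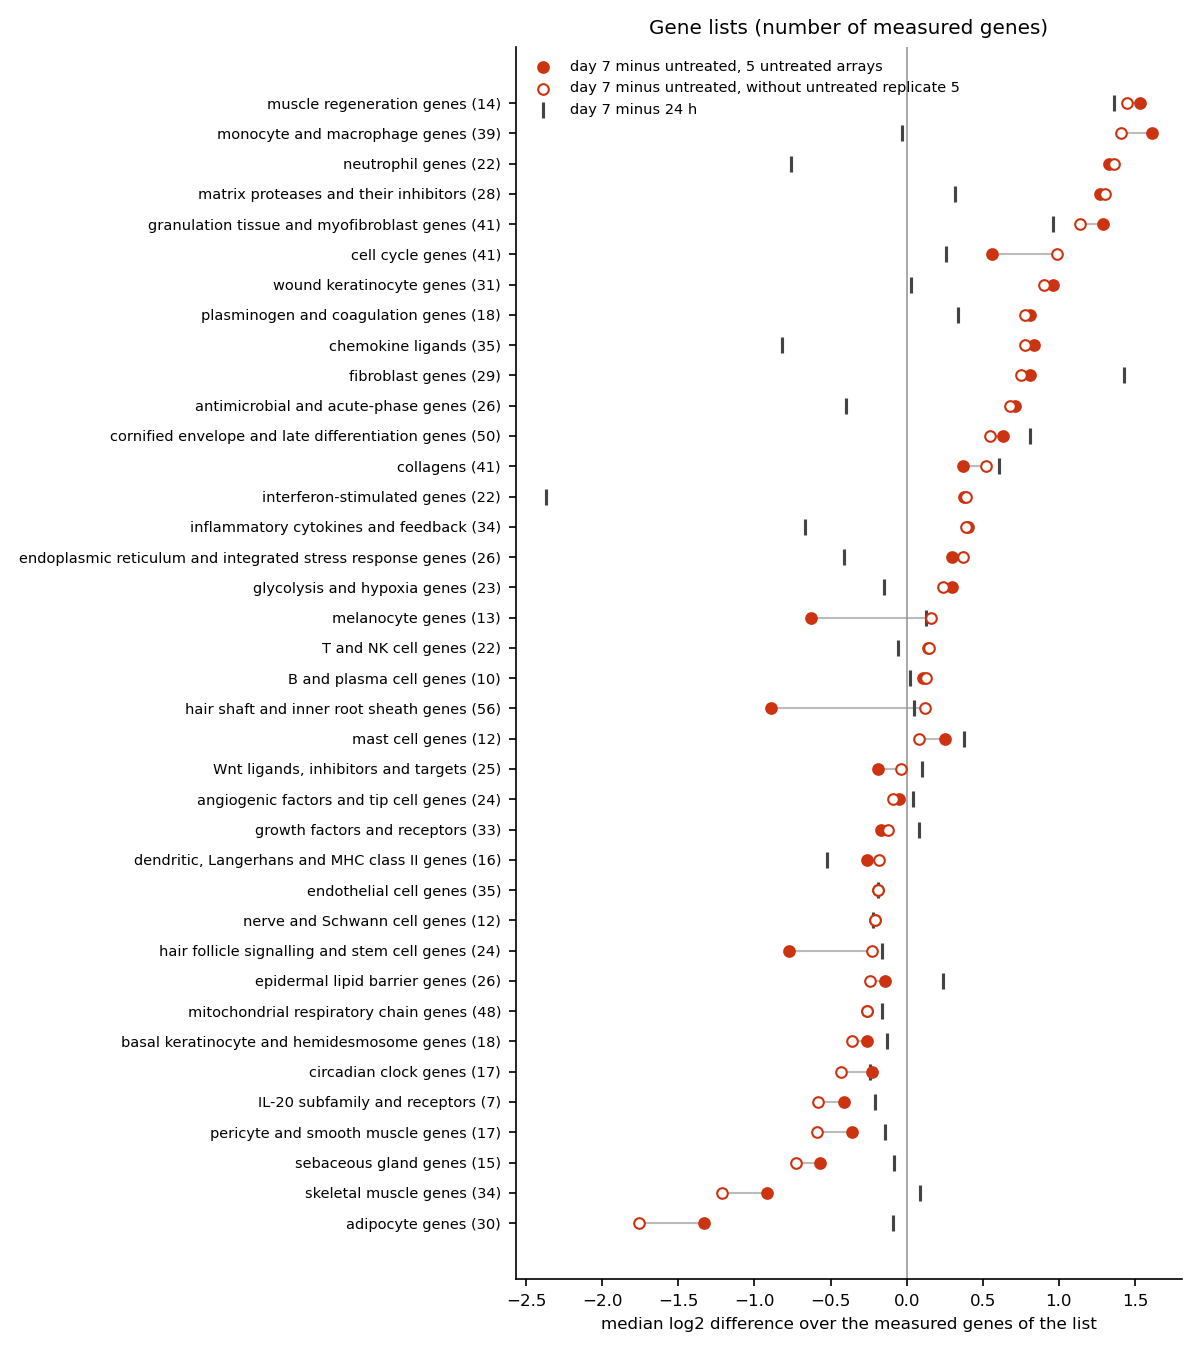
Median log2 difference of each gene list, with the number of its measured genes in brackets; filled circles use all 5 untreated arrays, open circles leave out untreated replicate 5, and bars mark day 7 minus 24 h. Muscle regeneration, macrophage and neutrophil genes are at the top (1.45, 1.41 and 1.36 without that array), adipocyte and skeletal muscle genes at the bottom (-1.76 and -1.21), and the hair shaft list moves from -0.89 to 0.12.

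Neutrophil genes were still high on day 7. Of 22 measured members 13 rose and 1 fell, with a median change of 1.33. S100a9, a subunit of calprotectin that neutrophils carry in bulk and wounded keratinocytes also make, was at 7.12, 7.71, 6.41, 6.21 and 5.01 in untreated skin and at 13.19, 13.20, 13.30, 13.39 and 12.29 on day 7. The groups did not overlap, and the change was 6.58 ± 0.43 (SE, adjusted p = 6.2e-06), which is 95.9-fold. Its partner S100a8 rose by 4.61 ± 0.25. Csf3r, the receptor for the growth factor of neutrophils, and Cxcr2, their chemokine receptor, belong to the neutrophils more strictly. Csf3r ranged from 5.21 to 6.19 in untreated skin and from 6.79 to 7.41 on day 7, a rise of 1.45 ± 0.19 (adjusted p = 0.00037), and Cxcr2 rose by 1.00 ± 0.18 (adjusted p = 0.0023). At 24 h both had been higher, at 9.29 to 9.66 and 7.77 to 8.63, and 11 of the 22 members were lower on day 7 than at 24 h while none was higher. S100a8 and S100a9 did not pass between the 2 times (-0.16 ± 0.16 and -0.58 ± 0.21). In bulk tissue, fewer cells of a type and less RNA per cell cannot be told apart, here and in all that follows.

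Chemokines that draw neutrophils rose within a run of neighbouring genes. Of 35 chemokine ligands measured, 17 were higher and 1 was lower on day 7. On chromosome 5 the run of 7 coding genes from Cxcl5 to Cxcl2 was measured whole, and 6 of the 7 were higher, Cxcl15 being the exception (0.17 ± 0.10). Cxcl5 was at 2.87, 2.90, 3.19, 3.09 and 3.16 in untreated skin, all within the background, and at 9.94, 9.65, 9.42, 8.70 and 9.19 on day 7. This is at least 58.1-fold over the background level (adjusted p = 6.7e-08). Cxcl3 was likewise at background in untreated skin (2.42 to 2.75) and at 7.66 to 9.02 on day 7, at least 27.5-fold. Cxcl2 rose by 4.64 ± 0.45 and Cxcl1 by 1.89 ± 0.34 (adjusted p = 5.6e-05 and 0.0025). All 4 were lower on day 7 than at 24 h, with changes of -2.10, -3.20, -4.12 and -2.61 for Cxcl5, Cxcl3, Cxcl2 and Cxcl1.

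The stretch before the start is shown for 3 of the 6 genes of this run that rose. These 3 are the ones found to hold a match to the motif below. Cxcl5, which also rose, has no promoter entry and was not searched. The bases are the 110 directly upstream of the start in RefSeq's annotation of GRCm38.p6, on the plus strand, at chr5:90891135-90891244 for Cxcl1, chr5:90903789-90903898 for Cxcl2 and chr5:90785991-90786100 for Cxcl3. Capitals mark matches, on either strand, to GGGNNTTTCC, a form of the site bound by NF-kB, a factor that relays inflammatory signals.
Cxcl1: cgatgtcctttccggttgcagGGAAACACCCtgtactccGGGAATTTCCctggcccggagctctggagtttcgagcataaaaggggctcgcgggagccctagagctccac
Cxcl2: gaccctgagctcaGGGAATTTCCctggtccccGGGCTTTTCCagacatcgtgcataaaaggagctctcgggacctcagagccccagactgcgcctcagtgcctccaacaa
Cxcl3: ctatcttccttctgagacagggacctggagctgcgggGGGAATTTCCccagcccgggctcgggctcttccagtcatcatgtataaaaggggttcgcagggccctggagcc
Cxcl1 and Cxcl2 hold 2 matches each and Cxcl3 holds 1, and GGGAATTTCC is common to all 3. Of 32851 promoters in the table, 464 (1.41%) hold a match in the 250 bases upstream. Pf4 and Ppbp, which lie in the same run and also rose, hold none, and neither does Cxcl15, which did not pass. A match is a description of the letters and no measure of binding.

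Cytokines split by time. Of 34 inflammatory cytokines and feedback genes, 12 were higher and 1 was lower than in untreated skin, while against 24 h 5 were higher and 18 lower. Il1b, the interleukin made by activated myeloid cells, was at 5.51, 5.93, 5.76, 5.46 and 6.38 in untreated skin, at 11.90 to 12.34 at 24 h and at 8.27, 8.05, 8.61, 7.72 and 7.12 on day 7. It was thus 4.42-fold above untreated skin (adjusted p = 0.00028) and 17.6-fold below 24 h (adjusted p = 2.2e-07). Il6 was at background in untreated skin (2.98 to 3.30) and at 5.40 to 6.40 on day 7, at least 4.93-fold higher. Tnf gave 0.22 ± 0.11 against untreated skin (adjusted p = 0.18) and was lower than at 24 h by -3.04 ± 0.17. Some epithelial signals ran the other way. Tslp, which alerts type 2 immune cells, Il1f6 (IL-36α) and Il1f8 (IL-36β) rose over untreated skin by 1.63 ± 0.27, 2.30 ± 0.37 and 1.86 ± 0.33, and over 24 h by 2.21 ± 0.20, 2.31 ± 0.30 and 2.37 ± 0.24. Il33, a nuclear alarm signal released from damaged cells, was at 7.89 to 9.07 in untreated skin and at 10.69 to 11.37 on day 7 (2.48 ± 0.21), with 0.18 ± 0.14 between the times.

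Keratinocytes carry the receptor chains of the IL-20 subfamily of cytokines, and 2 of these chains were lower on day 7. Il20ra fell by 0.94 on the log2 scale (SE 0.19, adjusted p = 0.0043) and Il20rb fell by 0.72 (SE 0.12, adjusted p = 0.0014), with no overlap of the groups in either. Il22ra1, the shared chain, was at 6.59, 6.46, 6.40, 6.97 and 5.73 in untreated skin and at 6.15, 6.04, 6.00, 6.29 and 5.65 on day 7, a change of -0.41 ± 0.20 that did not pass (adjusted p = 0.17). Without untreated replicate 5 the change was -0.58 (adjusted p = 0.0079), or 1.49-fold lower, which is just short of the 1.5-fold needed for a call. Il22ra2, a secreted receptor that captures IL-22, was at 9.08 to 10.09 in untreated replicates 1 to 4 and at 7.17 to 7.92 on day 7. With untreated replicate 5, at 5.46, its change was -1.21 ± 0.75 (adjusted p = 0.27), and without it -2.05 (adjusted p = 3.4e-05). Il24 was higher by 0.66 ± 0.12 than in untreated skin and lower by -1.35 ± 0.21 than at 24 h. The first call was lost when all 42 arrays shared 1 spread and with log2(value + 16).

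Most macrophage genes were higher than in untreated skin. Of 39 members 32 rose and 1 fell, with a median of 1.61; without untreated replicate 5 the counts were 31 and 1 and the median 1.41. The mean level of the list was 9.66 to 9.84 on day 7, 9.61 to 10.11 at 24 h and 7.72 to 9.32 in untreated skin, where replicates 3 and 4 were the highest. C1qa, a complement gene of settled macrophages, was at 9.49, 8.98, 10.58, 9.88 and 9.78 in untreated skin and at 11.46, 11.50, 11.56, 11.51 and 11.69 on day 7 (1.80 ± 0.23, adjusted p = 0.00037), and it was also above 24 h by 1.63 ± 0.15. Cd163, a scavenger receptor, did the same, at 2.82-fold over untreated skin and 2.2-fold over 24 h. Arg1, the arginase of wound macrophages, rose by 3.57 ± 0.25 over untreated skin and was lower than at 24 h by -0.95 ± 0.21. Chil3, a secreted lectin of the same cells, was at 5.35, 8.6, 8.52, 6.4 and 3.69 in untreated skin and at 8.48 to 10.85 on day 7, so the groups overlapped (3.44 ± 0.87, adjusted p = 0.015). Acod1, the itaconate enzyme of freshly activated myeloid cells, had the largest fall from its 24 h level among genes that held with each array left out (-5.15 ± 0.30), though it was still above untreated skin by 2.14 ± 0.32. Between the 2 times 12 members were higher and 12 lower. Gpnmb and Trem2, genes of lipid-loaded macrophages, were already high in untreated replicates 3 and 4, Gpnmb at 11.69 and 11.27 and Trem2 at 8.52 and 7.71. Gpnmb did not pass against untreated skin (1.15 ± 0.52, adjusted p = 0.13) and rose over 24 h by 2.72 ± 0.25. Trem2 was at the threshold (1.66 ± 0.55, adjusted p = 0.05), and its call was lost without untreated replicate 5 and with 7 of the other arrays left out. Retnla, a product of macrophages in type 2 responses, fell by 2.19 on the log2 scale (SE 0.41, adjusted p = 0.0032).

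Of 16 dendritic cell, Langerhans cell and MHC class II genes 2 rose (12.5%) and 6 fell (37.5%), beside 6.50% and 6.91% of all probe sets. The lower count was 3 without untreated replicate 5, day 7 replicate 2 or day 7 replicate 3. Of 22 T and NK cell genes 6 rose (27.3%) and 2 fell (9.09%). With quantile normalization, or without untreated replicate 1, 3 rose. Gzma, a granzyme of killer cells, rose by 1.21 ± 0.26, and Cd3g, a part of the T cell receptor complex, fell by 1.10 on the log2 scale (SE 0.15, adjusted p = 0.00054). Without untreated replicate 5, 2 of 12 mast cell genes rose and 1 fell. With all arrays 1 rose (8.33%, beside 6.50% of all probe sets). It was Fcer1a, the IgE receptor chain shared with basophils, from 4.74 to 6.86 in untreated skin to 7.87 to 8.35 on day 7 (2.32 ± 0.37). Of 10 B and plasma cell genes 2 rose (20%) and 1 fell (10%), with a median of 0.11. Ighm, the heavy chain of IgM, was the 1 that fell, by 1.40 on the log2 scale (SE 0.25), and was above 24 h by 1.09 ± 0.27.

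Most interferon-stimulated genes were lower than on the first day, though arrays of the 2 times overlapped. Of 22 interferon-stimulated genes 3 were higher than in untreated skin (13.6%, beside 6.50% of all probe sets) and none was lower. Against 24 h, 21 of the 22 were lower, with a median of -2.37. The mean level of the list was 7.22 to 8.34 on day 7, highest in replicate 2. At 24 h it was 8.12 to 11.12, lowest in replicate 2. Rsad2, an antiviral enzyme, was at 5.36, 6.07, 7.16, 6.43 and 5.58 in untreated skin, at 11.69, 8.25, 12.87 and 11.40 at 24 h and at 6.94, 8.60, 6.12, 5.87 and 6.35 on day 7. Day 7 replicate 2 was the highest of its group and 24 h replicate 2 the lowest of its own. The change was 0.66 ± 0.50 against untreated skin (adjusted p = 0.37) and -4.28 ± 0.79 against 24 h (adjusted p = 0.0015). Irf7, the factor that amplifies the response, and Mx1, an antiviral GTPase, were higher than in untreated skin, by 1.25 ± 0.30 and 1.39 ± 0.34. Both calls were lost when all 42 arrays shared 1 spread. Slfn4, a gene of young myeloid cells that interferon raises, was still higher by 3.40 ± 0.51 and lower than at 24 h by -4.76 ± 0.55.

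Antimicrobial and acute-phase genes rose in 12 of 26 cases and fell in 4. Saa3, a serum amyloid made locally, was at 4.96, 7.09, 5.64, 5.40 and 4.78 in untreated skin and at 11.54, 10.54, 11.14, 11.38 and 11.53 on day 7 (5.65 ± 0.39, adjusted p = 7.1e-06), with 0.21 ± 0.19 between the times. Reg3g, a bactericidal lectin, was at 4.36 to 4.99 in untreated skin, at 4.59 to 5.07 at 24 h and at 6.53 to 7.59 on day 7, so its rise of 2.42 ± 0.21 came after the first day. Slpi, an inhibitor of neutrophil elastase, was at 6.56 to 6.83 in 4 untreated arrays, at 9.42 in untreated replicate 2 and at 9.78 to 10.47 on day 7 (2.91 ± 0.49). Hamp2, a copy of the iron hormone hepcidin, had the largest fall of any gene that held with every array left out: 9.06, 8.67, 7.59, 8.62 and 9.54 in untreated skin and 5.48, 5.04, 5.32, 4.89 and 5.40 on day 7, or 11.1-fold lower (adjusted p = 2.6e-05). The array may not separate it from its near-identical copy. Wfdc21, a protease inhibitor of the skin, was at 10.53 to 11.27 in untreated skin and at 8.49 to 8.81 on day 7, 4.83-fold lower.

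**Figure D3:**
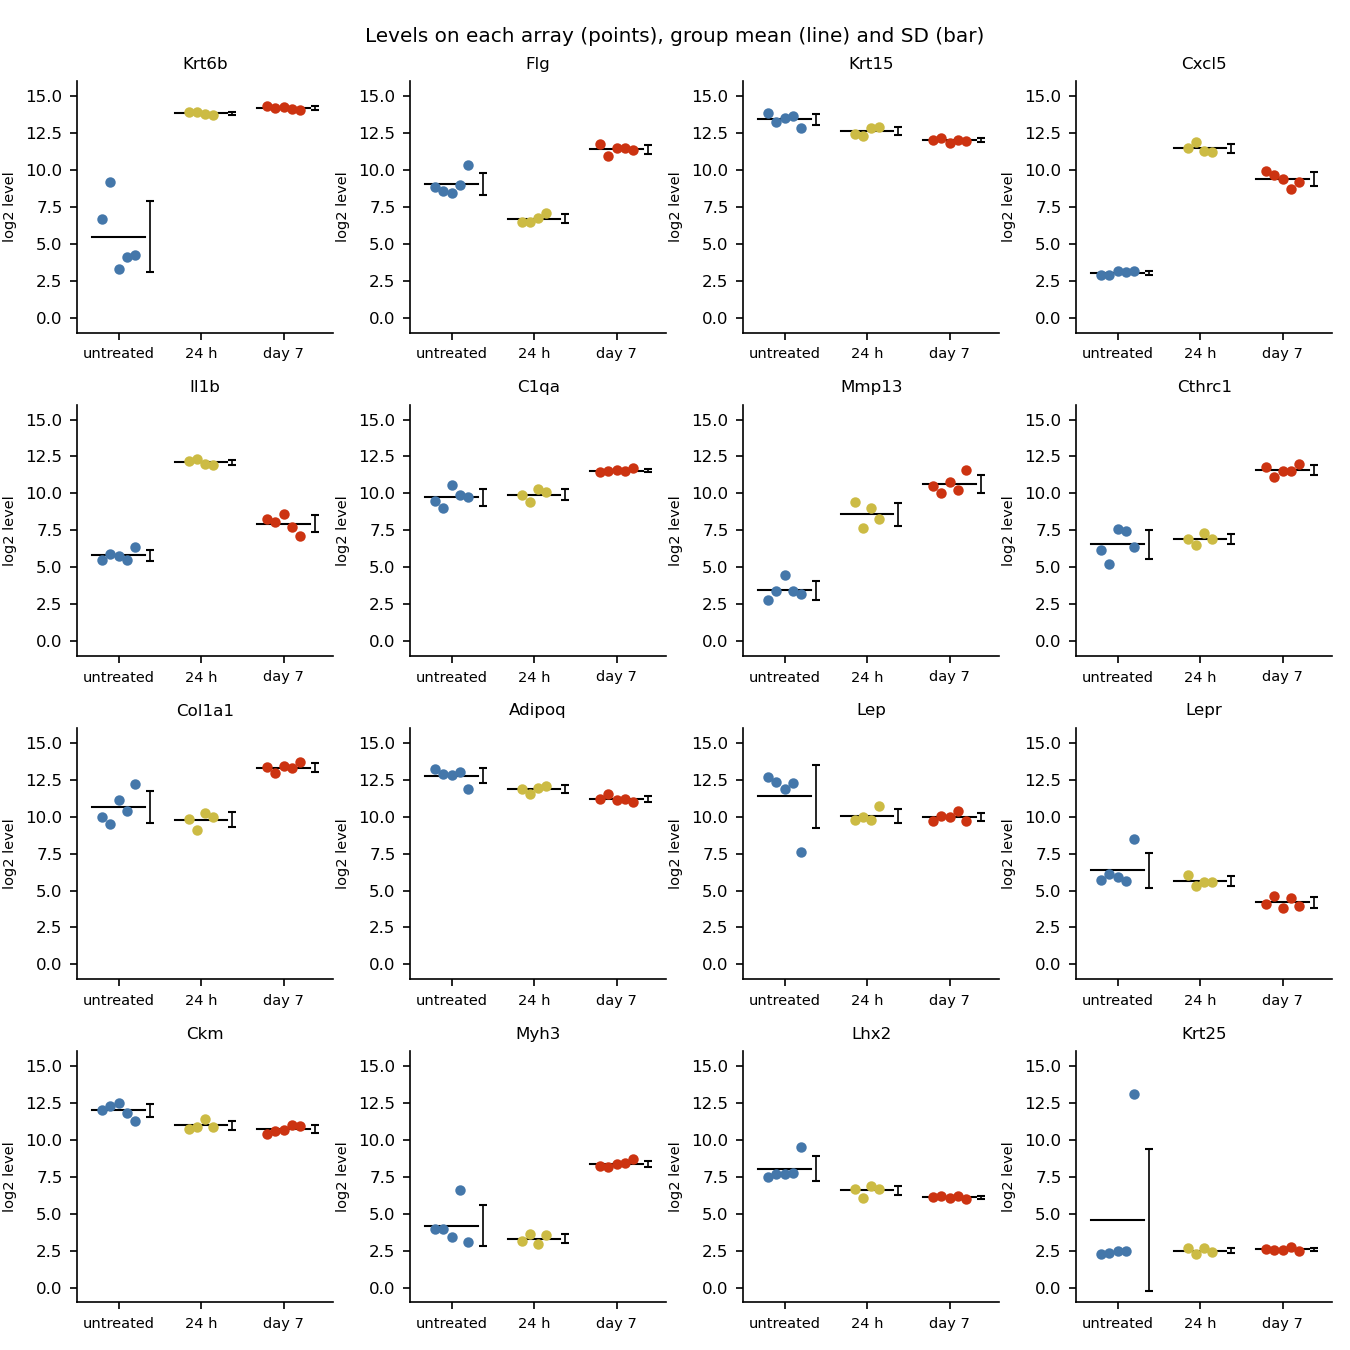
Log2 level of 16 genes on each array of untreated skin (5), 24 h wounds (4) and day 7 wounds (5); points are arrays in replicate order, the line is the group mean and the bar its SD. Krt6b, Mmp13 and Cxcl5 are high at both wound times, Cthrc1, Col1a1 and Myh3 are high on day 7, Il1b is highest at 24 h, and untreated replicate 5 lies far from its group in Krt25, Lep and Lepr.

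Of 31 wound keratinocyte genes 15 rose and 3 fell. Krt6b was at 6.67, 9.17, 3.31, 4.11 and 4.26 in untreated skin and at 14.34, 14.20, 14.28, 14.15 and 14.05 on day 7. This is the largest rise of all (8.70 ± 0.92, adjusted p = 1e-04, or 417-fold), on a base that varied widely among untreated arrays. Its partner Krt16 rose by 5.69 ± 0.62 and Krt6a by 3.92 ± 0.28. In untreated replicate 2, Krt6b (9.17), Krt16 (10.49), Sprr1b (8.30) and Slpi (9.42) were each the highest of the untreated arrays. Sprr1b, a cross-linked protein of the cell envelope, was at 12.05 to 12.69 on day 7 (7.02 ± 0.83), and 2610528A11Rik, a gene named only by its clone, was at 2.68 to 5.38 in untreated skin and at 10.10 to 10.91 on day 7 (6.97 ± 0.43). Its untreated level was above background in replicate 5 alone. Krt17 did not pass (0.28 ± 0.27, adjusted p = 0.48). Its highest level in untreated skin was in replicate 5 (12.57 against 10.96 to 11.85). Without that array Krt17 gave 0.55 (adjusted p = 0.019), which is under 1.5-fold. The general keratinocyte marker Krt5 was at 12.98 to 13.42 in untreated skin and at 12.90 to 13.22 on day 7 (-0.15 ± 0.10, adjusted p = 0.32).

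Late differentiation genes rose in 24 of 50 cases and fell in 3, or 24 and 4 without untreated replicate 5. On day 7, 32 of the 50 were higher than at 24 h against 1 lower. Of 26 genes of the epidermal lipid barrier 1 rose (3.85%) and 4 fell (15.4%), beside 6.50% and 6.91% of all probe sets. Without untreated replicate 5 the lower count was 6, without day 7 replicate 1 or untreated replicate 1 it was 2, and without day 7 replicate 5, untreated replicate 2 or untreated replicate 4 it was 1. Flg, the precursor of filaggrin, which bundles keratin in the outer layer, went down and then up. It was at 8.84, 8.62, 8.46, 8.98 and 10.38 in untreated skin, at 6.47, 6.52, 6.79 and 7.09 at 24 h and at 11.74, 10.94, 11.47, 11.51 and 11.39 on day 7. The 3 groups did not overlap, and day 7 was 5.09-fold above untreated skin (adjusted p = 5e-04) and 25.8-fold above 24 h (adjusted p = 1.4e-08). Rptn, a relative of filaggrin, was at 5.74 to 7.90 in untreated skin and at 10.73 to 11.35 on day 7, 4.39 ± 0.39 over untreated skin and 4.82 ± 0.27 over 24 h. Casp14, the protease that processes filaggrin, rose by 2.08 ± 0.51, or by 2.66 without untreated replicate 5, where it stood at 9.82. Krt2, a keratin of the upper epidermis, ranged from 4.59 to 8.71 on day 7 and from 4.05 to 4.74 in untreated skin, with the first day 7 array inside the untreated range (2.81 ± 0.63, adjusted p = 0.008). Of the major keratins of the suprabasal layers, Krt1 rose by 0.69 ± 0.14 (adjusted p = 0.0052, a call lost with array weights) and Krt10 gave 0.04 ± 0.10 (adjusted p = 0.79). Lor, the main envelope protein, was lower on every day 7 array (13.17 to 13.48 against 13.72 to 13.86) by less than 1.5-fold (-0.47 ± 0.08). Other epidermal genes fell outright. Krt77, a suprabasal keratin, fell by 1.28 on the log2 scale (SE 0.09), and Lce1m, a late envelope protein, fell by 2.28 (SE 0.22), in both cases with no overlap. Krt15, a keratin of resting basal and bulge cells, was at 13.84, 13.28, 13.55, 13.66 and 12.83 in untreated skin and at 12.05, 12.20, 11.84, 12.02 and 11.97 on day 7, 2.67-fold lower (adjusted p = 0.00023).

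Many of these genes lie together in the epidermal differentiation complex on chromosome 3, from S100a1 to S100a11. Of its 69 coding genes 47 were measured, and 18 were higher and 4 lower on day 7, or 21 and 6 without untreated replicate 5. The rises were not spread evenly along it. All 6 measured genes from Sprr2d to Sprr1b rose (1.18 to 7.02), as did the 4 measured Lce3 genes (2.54 to 4.23), while of the 10 measured Lce1 genes from Lce1a1 to Lce1l only Lce1f and Lce1g rose (0.85 and 1.44) and Lce1l fell (-1.01). The calls of Lce1f and Lce1l were lost with 6 and 4 of the 10 arrays left out in turn. Against 24 h, 25 of the 47 were higher and none was lower. The Sprr2 and Lce genes are close copies, and their probe sets may share signal.

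**Figure D4:**
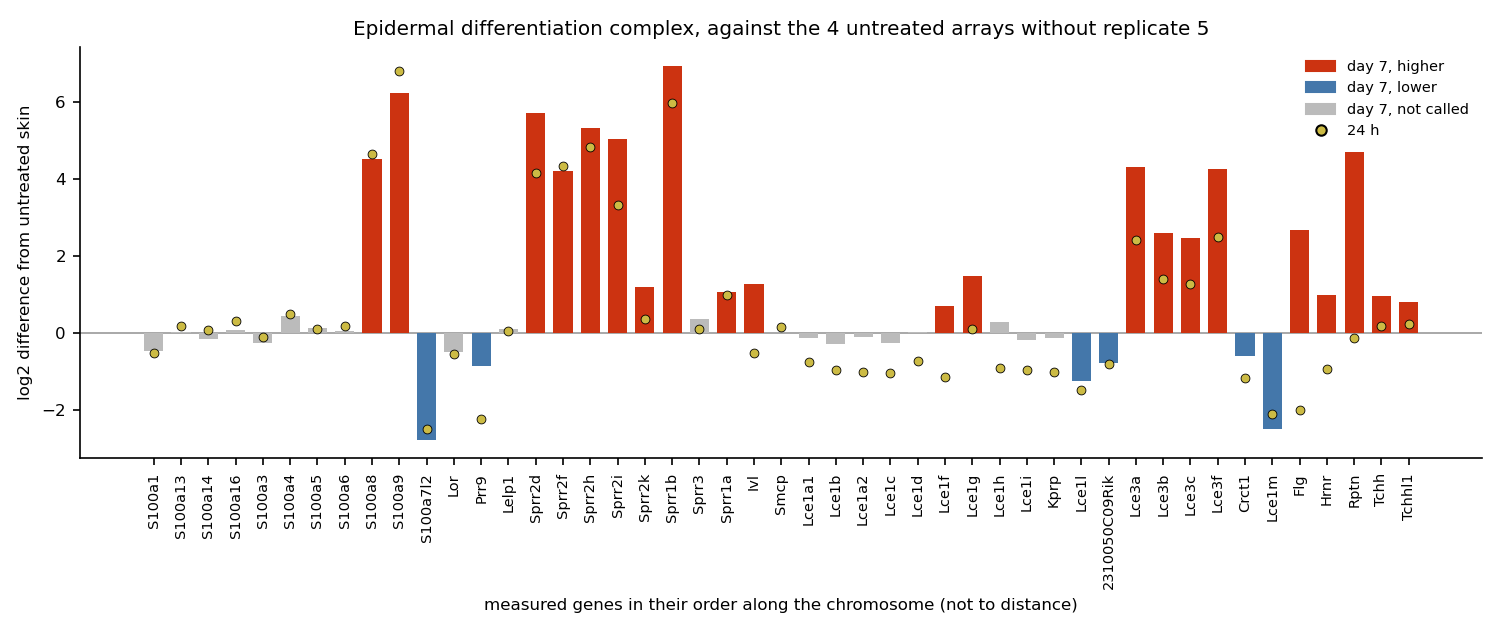
Log2 difference from untreated skin, without untreated replicate 5, for the 47 measured genes of the epidermal differentiation complex in their order along chromosome 3 (spacing is not to distance); bars are day 7, coloured where the change passed the threshold, and points are 24 h. The Sprr2, Sprr1 and Lce3 genes are raised at both times, most Lce1 genes are below untreated skin at 24 h, and Flg is at -2.01 at 24 h and 2.68 on day 7.

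The matrix of granulation tissue set day 7 apart from the first day. Of 41 granulation tissue and myofibroblast genes 32 rose and none fell, and in 32 of the 41 every day 7 array lay above every untreated array, as it did for 9.17% of all probe sets. Against 24 h, 25 were higher and 3 lower. Of 29 fibroblast genes 17 rose and 3 fell, and of 41 collagens 17 rose and 3 fell. Without untreated replicate 5 the counts were 17 and 4 for fibroblast genes and 19 and 4 for collagens. Against 24 h, 22 fibroblast genes and 21 collagens were higher and none was lower. Cthrc1, a secreted protein of activated fibroblasts, was at 6.16, 5.21, 7.60, 7.43 and 6.36 in untreated skin, at 6.48 to 7.34 at 24 h and at 11.78, 11.14, 11.51, 11.53 and 11.99 on day 7. This is 32.9-fold over untreated skin (5.04 ± 0.40, adjusted p = 1.5e-05) and 25.6-fold over 24 h (adjusted p = 2.3e-08). Col1a1, the main chain of type I collagen, was at 9.98, 9.52, 11.15, 10.40 and 12.24 in untreated skin and at 13.33, 12.93, 13.41, 13.26 and 13.69 on day 7 (2.66 ± 0.42, adjusted p = 0.0012). Col3a1, the collagen of early scar, rose by 2.26 ± 0.23, and Col12a1, which ties fibrils together, by 2.86 ± 0.31. In untreated replicate 5 several matrix genes were high. Col11a1 was at 8.49 there, at 2.80 to 3.16 in the other untreated arrays and at 6.02 to 7.81 on day 7, so its rise of 3.13 ± 0.99 (adjusted p = 0.04) lost its call with 8 of the arrays left out and passed without that array (adjusted p = 1.2e-06), where the remaining untreated arrays were all within the background. Lrrc15, a marker of activated fibroblasts, was likewise at 10.25 there, at 4.21 to 5.76 in the others and at 9.10 to 10.79 on day 7; it rose over 24 h by 5.66 ± 0.26.

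Genes that shape and anchor the new matrix rose with it. Tnc (tenascin C, a matrix protein of healing edges) rose by 2.92 ± 0.38, Plod2 (which hardens collagen cross-links) by 2.94 ± 0.45, Postn (periostin, a matrix protein of the dermis under repair) by 1.75 ± 0.19 and Adam12 (a membrane protease of activated stroma) by 3.12 ± 0.21. Sfrp2, a secreted modulator of Wnt signals, was at 6.02 to 8.32 in untreated skin and at 11.12 to 11.89 on day 7 (4.66 ± 0.34), and Wnt2, a Wnt ligand, rose by 2.43 ± 0.25. Ccn4 and Ccn3, matricellular proteins, rose by 3.35 ± 0.35 and 3.82 ± 0.28. Ccn3, C1qtnf3, a secreted protein of stroma, and Mfap5, a microfibril protein, had lain below untreated skin at 24 h and lay above it on day 7, on every array in both cases. The contractile genes that define a myofibroblast did not pass against untreated skin. Acta2 (smooth muscle actin) was at 11.61 to 12.15 in untreated skin and at 11.55 to 12.32 on day 7 (0.23 ± 0.15, adjusted p = 0.29), and Tagln gave 0.03 ± 0.27 (adjusted p = 0.96). Both were above 24 h, by 0.69 ± 0.13 and 0.97 ± 0.13.

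**Figure D5:**
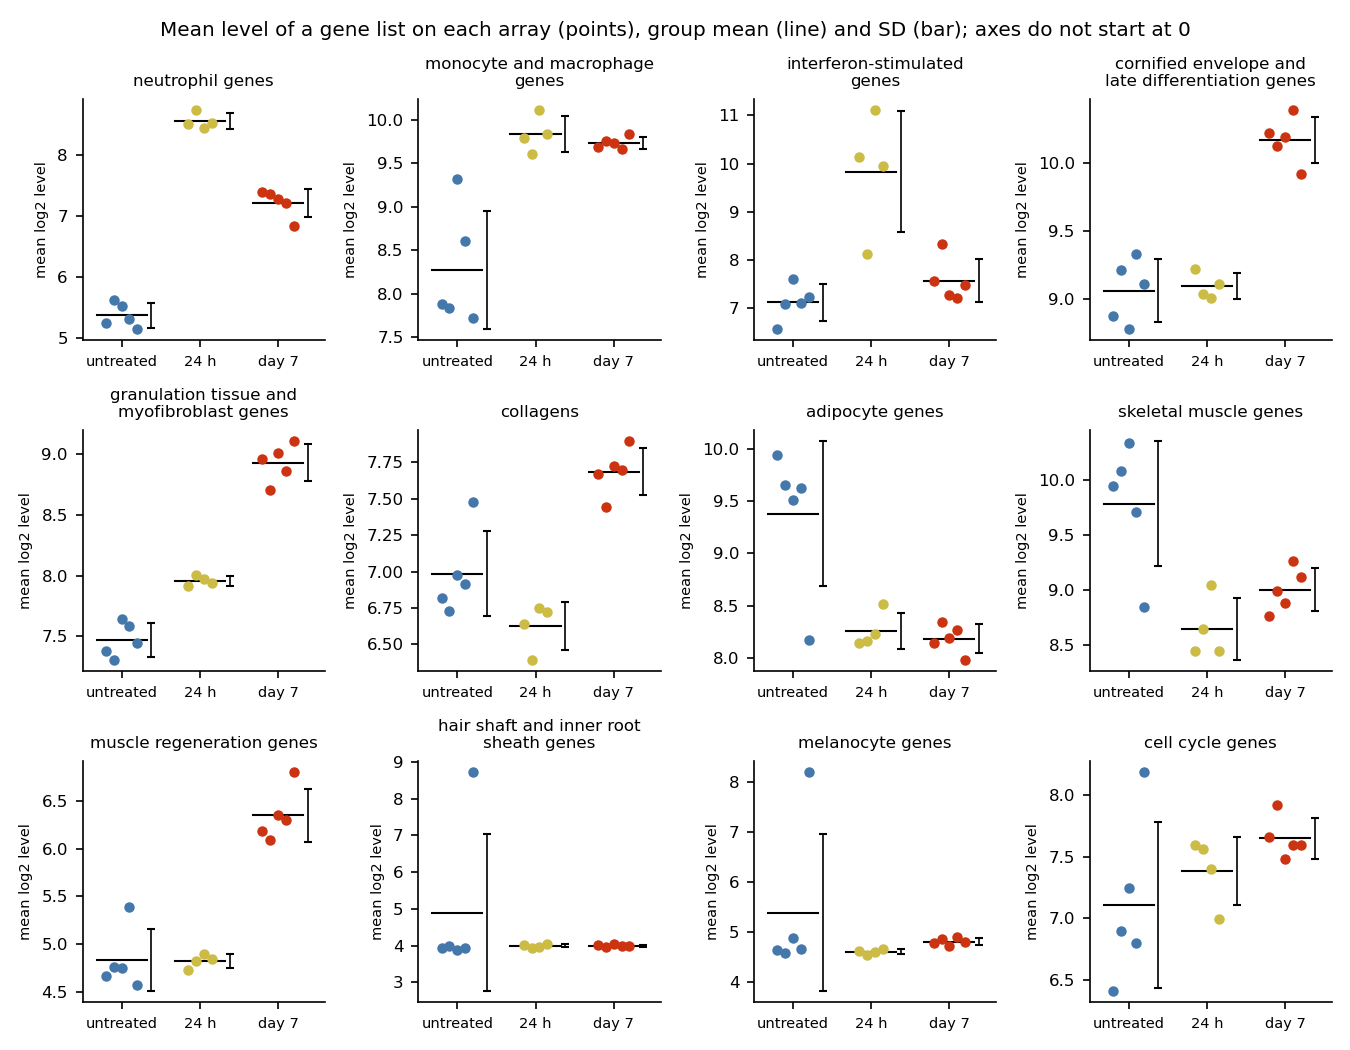
Mean log2 level of 12 gene lists on each array; points are arrays in replicate order, the line is the group mean, the bar its SD, and each panel has its own axis. The granulation tissue list is at 8.71 to 9.11 on day 7 and at 7.30 to 7.65 in untreated skin, the interferon list at 8.12 to 11.12 at 24 h, and untreated replicate 5 lies apart from the other untreated arrays in the hair shaft, melanocyte and adipocyte lists.

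Proteases that cut this matrix rose too. Of 28 matrix proteases and inhibitors 15 rose and none fell, or 15 and 2 without untreated replicate 5. Mmp13, the main collagenase of rodents, was at 2.76, 3.40, 4.48, 3.38 and 3.22 in untreated skin, at 9.39, 7.65, 9.01 and 8.25 at 24 h and at 10.53, 10.05, 10.78, 10.20 and 11.59 on day 7. In untreated skin it was above background on 1 of the 5 arrays, replicate 3, so the fitted rise of 7.18 ± 0.34 (adjusted p = 9.6e-07) rests on a base near background, and day 7 was above 24 h by 2.06 ± 0.36. Mmp3 (stromelysin) rose by 2.97 ± 0.16 and Mmp9 (a gelatinase of myeloid cells and keratinocytes) by 3.27 ± 0.19, with no pass between the times (-0.25 ± 0.10 and -0.09 ± 0.19). Mmp8, the neutrophil collagenase, was at 4.78 to 5.96 on day 7 and at 7.79 to 8.95 at 24 h (-2.72 ± 0.28), and over untreated skin it rose by 1.76 ± 0.24. Mmp12, the elastase of macrophages, spanned 4.85 to 9.66 in untreated skin and did not pass (1.20 ± 0.77, adjusted p = 0.29). Timp1, their inhibitor, rose by 4.02 ± 0.32. Of 18 plasminogen and coagulation genes 10 rose and none fell. Plat, the tissue activator of plasmin, was at 7.16 to 7.99 in untreated skin, at 7.24 to 7.64 at 24 h and at 9.33 to 10.22 on day 7 (2.50 ± 0.20), while Plaur, the receptor for urokinase, rose by 1.23 ± 0.31 and had been higher at 24 h.

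Mmp13, Mmp3, Mmp10 and Mmp8 lie in a run of 10 metalloproteinase genes on chromosome 9, of which 9 were measured and these 4 rose. The 80 bases upstream of the start of 3 of them are printed for comparison, from the same annotation and on the plus strand, at chr9:7272434-7272513 for Mmp13, chr9:7445742-7445821 for Mmp3 and chr9:7502262-7502341 for Mmp10. Capitals mark TGANTCA, a motif that reads as itself on the other strand and is bound by AP-1, a factor of wound and growth signals.
Mmp13: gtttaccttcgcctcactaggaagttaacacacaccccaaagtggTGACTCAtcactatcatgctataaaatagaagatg
Mmp3: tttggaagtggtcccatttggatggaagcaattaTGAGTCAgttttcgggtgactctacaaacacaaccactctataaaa
Mmp10: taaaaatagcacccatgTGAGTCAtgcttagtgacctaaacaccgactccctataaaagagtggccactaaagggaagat
The last base of the motif lies 29, 40 and 57 bases before the start, respectively. It is in the 250 bases upstream of 2217 of the 32851 promoters (6.75%). Mmp8, which rose, holds none, and Mmp1a, which holds 1, did not pass (0.05 ± 0.11). Mmp1b and Mmp20, and 1 of 2 promoter entries each of Mmp7 and Mmp12, also hold a match, and none of these 4 genes passed.

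Calls among vessel genes showed no common direction. Of 35 endothelial genes 4 rose (11.4%) and 1 fell (2.86%), beside 6.50% and 6.91% of all probe sets. Without untreated replicate 5 the counts were 3 and 6. The median change was -0.19 in both cases. The mean level of the endothelial list was 6.67 to 6.77 on day 7. This lay below every 24 h array (6.78 to 7.01) and below untreated replicates 1 to 4 (6.86 to 6.99). Untreated replicate 5 lay lower, at 6.30. Of 24 angiogenic factors and tip cell genes 4 rose (16.7%) and 3 fell (12.5%), or 4 and 4 without that array. Pecam1 and Cdh5, junction proteins of all vessels, gave 0.07 ± 0.21 and 0.14 ± 0.16, Kdr, the main receptor for VEGF, gave -0.31 ± 0.15, and Vegfa itself -0.06 ± 0.16. None of the 4 passed, with or without untreated replicate 5. Without it Kdr gave -0.46 (adjusted p = 0.0012), which is under 1.5-fold. Aplnr, the apelin receptor of sprouting vessels, was at 5.51 to 6.52 in untreated replicates 1 to 4, at 8.63 in replicate 5 and at 8.34 to 9.02 on day 7 (2.16 ± 0.50, adjusted p = 0.01, and 2.70 without replicate 5). Esm1, a gene of endothelial tip cells, rose by 1.17 ± 0.20. Of 23 glycolysis and hypoxia genes 9 rose and 1 fell, or 9 and 4 without untreated replicate 5. Hif1a, the oxygen-sensing factor, rose by 1.76 ± 0.28, Egln3, its target and brake, by 2.10 ± 0.34 and Slc2a1, the glucose transporter, by 1.44 ± 0.17. Of the 17 pericyte and smooth muscle genes, 7 were lower and 1 was higher, or 9 and 1 without untreated replicate 5. Myh11, the smooth muscle myosin, was at 9.63, 9.22, 9.29, 9.34 and 8.11 in untreated skin and at 7.64, 7.89, 7.73, 7.80 and 7.50 on day 7 (fell by 1.40, SE 0.24, adjusted p = 0.0018). Synpo2, an actin-bundling protein of smooth and striated muscle, fell by 1.81 (SE 0.17).

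Fat genes fell. Of 30 adipocyte genes 18 fell and none rose, with a median of -1.33; without untreated replicate 5 it was 25 and none, with a median of -1.76. The mean level of the list was 7.97 to 8.35 on day 7, 8.14 to 8.51 at 24 h, 9.51 to 9.94 in untreated replicates 1 to 4 and 8.17 in replicate 5. Adipoq, the fat hormone adiponectin, was at 13.21, 12.89, 12.79, 13.05 and 11.90 in untreated skin and at 11.22, 11.53, 11.15, 11.21 and 10.97 on day 7, 2.94-fold lower (adjusted p = 0.00058). Retn, the hormone resistin, was at 11.02, 10.74, 10.05, 10.43 and 10.65 and then at 7.75, 8.16, 8.24, 8.37 and 7.97, which is 5.58-fold lower (adjusted p = 8.7e-06). Pck1, which makes the glycerol backbone of stored fat, fell by 2.16 (SE 0.17). Lep, the hormone leptin, was at 9.72 to 10.38 on day 7, so replicates 1 to 4 of the untreated skin lay above and replicate 5 below. Its change was -1.40 ± 0.82 (adjusted p = 0.24) with that array and -2.35 (adjusted p = 1.4e-06) without it. Fabp4, a fatty acid carrier, and Lpl, which frees fatty acids from lipoproteins, were also low on that array (5.41 and 11.46). Fabp4 gave -1.32 ± 0.53 (adjusted p = 0.093), and -1.85 (adjusted p = 0.00026) without the array, and Lpl gave -1.17 ± 0.35 (adjusted p = 0.033), a call lost with 8 arrays left out in turn, and -1.55 without it. Thrsp, a gene of fat synthesis, fell far on the first day and partly returned: 8.14 to 10.58 in untreated skin, 5.29 to 6.09 at 24 h and 7.33 to 8.00 on day 7, with 1.84 ± 0.17 over 24 h. Lepr, the gene that carries the db/db mutation, was at 5.69, 6.15, 5.90, 5.67 and 8.46 in untreated skin and at 4.08, 4.61, 3.81, 4.52 and 3.96 on day 7 (fell by 2.17, SE 0.47, adjusted p = 0.0072). At 24 h it was at 5.29 to 6.06. The probe set's place relative to the mutation was not examined.

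Skeletal muscle was read in 2 opposite ways. Under the skin of the mouse back lies a thin muscle sheet, the panniculus carnosus. Genes of mature fibres fell: of 34 skeletal muscle genes 17 fell and 2 rose, and 29 fell without untreated replicate 5, whose mean level (8.85) was below that of the other untreated arrays (9.71 to 10.34) and within that of day 7 (8.76 to 9.27). Ckm, muscle creatine kinase, was at 12.04, 12.29, 12.48, 11.85 and 11.29 in untreated skin and at 10.37, 10.63, 10.65, 11.03 and 10.97 on day 7, 2.39-fold lower (adjusted p = 0.0018). Ckmt2, its mitochondrial relative, fell by 2.34 (SE 0.34) and Mylk4, a kinase of striated muscle, by 2.17 (SE 0.31). Myh4, the myosin of fast fibres, gave -1.28 ± 0.36 (adjusted p = 0.025) with overlapping groups, and lost its call with 6 of the arrays left out. In the same samples, genes of newly forming fibres rose: of 14 muscle regeneration genes 10 rose and none fell. Without untreated replicate 5 the counts were 9 and none. Against 24 h, 10 were higher and 1 lower. Myh3, the embryonic myosin, was at 3.94, 3.94, 3.42, 6.59 and 3.10 in untreated skin, at 2.96 to 3.64 at 24 h and at 8.22, 8.14, 8.40, 8.42 and 8.72 on day 7. The rise was 18.2-fold over untreated skin (adjusted p = 0.00035) and it also passed against 24 h (adjusted p = 4.1e-09), where 2 of the 4 arrays were within the background. Myog, the factor of differentiating muscle cells, rose by 2.24 ± 0.31, Mymk, which lets them fuse, by 1.62, and Actc1 and Myl4, embryonic actin and myosin light chain, by 2.68 ± 0.43 and 2.50 ± 0.37. Tnni1, the slow troponin, was 1 of the 2 adult genes that rose (2.35 ± 0.30). Of the factors of the muscle stem cell and early myoblast, Pax7 was at background on all arrays (2.82 to 3.25) and Myod1 gave 0.17 ± 0.12 (adjusted p = 0.33). Untreated replicate 4, with Myh3 at 6.59, had the highest level of the regeneration list in untreated skin (5.39 against 4.57 to 4.76).

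Of 48 genes of the mitochondrial respiratory chain and its control 5 fell (10.4%, beside 6.91% of all probe sets) and none rose. The median was -0.26. Without untreated replicate 5 the count was again 5, where 9.40% of all probe sets fell. Of the 48 genes 21 lay lower on every day 7 array than on every untreated array, as did 8.99% of all probe sets. Among the 5 were Cox7a1, Cox8b and Cox6a2 (-1.69, -1.71 and -1.51), subunits of cytochrome oxidase known from striated muscle and brown fat, and Ppargc1a (-1.33), a driver of mitochondrial growth. The skeletal muscle list, which also holds Cox6a2, fell in the same samples, and its part in this was not tested.

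The hair follicle lists depended on untreated replicate 5 to different degrees. Shaft and sheath genes were low on day 7 (mean level 3.97 to 4.04) as in untreated replicates 1 to 4 (3.89 to 4.00). With replicate 5 the 56 genes had a median of -0.89 and 1 call, and without it a median of 0.12 and 4 calls. Follicle signalling and stem cell genes fell in 11 of 24 cases, with 1 rise, in number the same with and without that array. Their median was -0.77 with it and -0.23 without it. The mean level of this list was 7.88 in replicate 5, 6.57 to 6.69 in the other untreated arrays and 6.14 to 6.21 on day 7. Lhx2, a factor of follicle stem cells, was at 7.51, 7.72, 7.66, 7.75 and 9.54 in untreated skin and at 6.15, 6.17, 6.05, 6.20 and 5.98 on day 7 (fell by 1.93, SE 0.33, and by 1.55 without replicate 5, adjusted p = 0.0019 and 2.9e-07). Sox9, another factor of these cells, fell by 1.16 (SE 0.21), and Bmp2, a signal that keeps them at rest, by 1.29 (SE 0.20). Wif1, a Wnt inhibitor, fell by 2.03 (SE 0.50), or by 1.46 without that array, where it stood at 8.96. Axin2, a target of Wnt signals, fell by 0.86 (SE 0.11), with 7.66 to 7.90 in untreated skin and 6.56 to 7.06 on day 7. Of 15 sebaceous gland genes 6, or 11 without replicate 5, were lower and none was higher. Scd3, a desaturase of sebaceous cells, was at 8.86, 8.42, 7.70, 7.76 and 8.13 in untreated skin and at 5.33, 5.54, 6.01, 5.65 and 6.03 on day 7 (fell by 2.46, SE 0.23, adjusted p = 4.2e-05). Cldn8, a tight junction protein, fell by 2.19 (SE 0.22).

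The reading of dividing cells turned on untreated replicate 5. Of 41 cell cycle genes 3 rose with all arrays, and 27 without untreated replicate 5. Mki67, present in all dividing cells, was at 8.90, 9.53, 9.83, 9.28 and 11.42 in untreated skin, at 9.40 to 10.38 at 24 h and at 10.46, 10.76, 10.18, 10.48 and 10.15 on day 7. The change was 0.61 ± 0.39 (adjusted p = 0.28) with that array and 1.02 (adjusted p = 9e-04) without it. Day 7 lay above the other 4 untreated arrays and below replicate 5.

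Of 33 growth factors and receptors 4 rose (12.1%) and 6 fell (18.2%), beside 6.50% and 6.91% of all probe sets. Without untreated replicate 5 the counts were 5 and 9, where 7.77% and 9.40% of all probe sets passed. Pdgfc, a ligand for fibroblasts, was at 7.28 to 8.36 in untreated skin and at 9.48 to 9.77 on day 7 (1.71 ± 0.17), and Igf2, a growth factor of embryonic and regenerating tissue, rose by 1.34 ± 0.21, after having been lower than untreated skin at 24 h. Btc, a ligand of the EGF receptor, was at 7.46 to 9.36 in untreated skin and at 6.70 to 7.06 on day 7 (fell by 1.90, SE 0.30), and Fgfr2, through which keratinocytes sense fibroblast growth factors, fell by 1.11 (SE 0.12). Of 17 circadian clock genes 5 fell (29.4%) and 2 rose (11.8%), or 7 and 3 without untreated replicate 5. The clock-controlled factor Dbp fell by 1.59 (SE 0.27), with Per3 and Cry2, 2 repressors of the clock, down by 1.32 and 1.05, while Npas2, an activator, rose by 0.99 ± 0.18 and Bhlhe40, a repressor that hypoxia also raises, by 1.30 ± 0.15. The time of day of sampling is not given. Mbp, the main protein of myelin, fell by 1.51 (SE 0.15). Of 12 nerve and Schwann cell genes 2 fell (16.7%) and 1 rose (8.33%), beside 6.91% and 6.50% of all probe sets.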

How the data were processed

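RNA from mouse skin was measured on Affymetrix Mouse430 2.0 arrays. The authors normalized the arrays by RMA and deposited intensities on a linear scale for 20672 probe sets and 42 arrays, and per the methods 1 probe set was kept for each gene, which leaves the choice of probe set to the variance over the whole series. No versions are given. Here the log2 of each intensity was taken, and 5 day 7 control wounds were compared with 5 untreated skins, and with 4 control wounds of 24 h, by limma 3.58.1 in R 4.3.3 (lmFit and eBayes) with Benjamini-Hochberg adjustment over all probe sets. A call needed an adjusted p under 0.05 and 1.5-fold or more. The mean of the 2 control probe sets at the 5′ ends of Actb and Gapdh was compared by an exact permutation test. Of the probe sets 17928 had 1 gene symbol, 79 several and 2665 none, and only the first kind was named. The scripts were tested on simulated data. Array number limits the precision, and p-values measure only the spread between these arrays, which the labels do not tie to single animals.

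The gene lists (40, with 1023 of 1122 entries measured), members and tests were chosen with earlier results of these data known. Genes named are the 12 with the largest rise and the 12 with the largest fall that passed with each of 10 arrays left out, 6 in each direction against 24 h by the same rule, and examples from each list, both called and not called. Neighbours within gene runs, and the respiratory chain and fusion genes, were named after their values were seen. RefSeq's promoter table of GRCm38.p6 gave the sequences. Alternatives covered the normalization, filters, offset, spread, array weights, thresholds, the 5′ level as covariate, the methods' t-test and each array left out.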

Additional observations from a re-analysis of the deposited data

Results flagged for a closer look

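An array was marked where the gap from the highest or lowest value of a group to its nearest neighbour took up an unusually large part of the group's range. The figure given is that gap over the range. Of 498 groups of values scanned, 54 (10.8%) were marked, where chance marks about 1 in 20. Untreated replicate 5 accounts for 28 of them and 24 h replicate 2 for 11.

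In untreated replicate 5 the highest values were those of Tyr (0.982), Krt25 (0.981), the hair shaft list (0.978), Col11a1 (0.937), Shh (0.93), the melanocyte list (0.917), Wif1 (0.883), Lhx2 (0.882), Tagln (0.844), Prss35 (0.842), Casp14 (0.841), Bhlhe40 (0.832), Lepr (0.827), Plod2 (0.803), Acta2 (0.752), Lrrc15 (0.743), Flg (0.73), Egln3 (0.719) and 2610528A11Rik (0.713). The lowest there were Hif1a (0.9), Cxcl1 (0.89), Lep (0.841), the 5′ level (0.801), Il22ra2 (0.782), Ifitm6 (0.759), the adipocyte list (0.756), Lpl (0.742) and Myh11 (0.733). Other untreated arrays were marked as highest in Slpi (replicate 2, 0.906), Reg3g (replicate 3, 0.782), Myh3 (replicate 4, 0.761) and the muscle regeneration list (replicate 4, 0.769).

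At 24 h, replicate 2 was highest in Cxcr2 (0.936), the 5′ level (0.919), Mmp8 (0.859) and Il1f8 (0.858), and lowest in Rptn (0.959), Npas2 (0.896), Pdgfc (0.888), Il20ra (0.883), C1qtnf3 (0.872), Mfap5 (0.836) and Prss35 (0.831). Replicate 3 was highest in Reg3g (0.887), Sfrp2 (0.878), Retnla (0.86) and Cox7a1 (0.846), and replicate 4 lowest in Lrrc15 (0.882). On day 7, replicate 5 was lowest in S100a9 (0.821) and S100a8 (0.721) and highest in Trem2 (0.837) and Mymk (0.739), while replicate 2 was highest in Cxcl10 (0.795) and lowest in Col12a1 (0.729).

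Some genes lay below every untreated array at 24 h and above every untreated array on day 7. The log2 difference between the times, tested by limma, was 4.69 for Flg, 1.11 for Krt1, 5.11 for C1qtnf3, 4.80 for Ccn3, 3.18 for Mfap5 and 2.03 for Igf2. Over all probe sets the 2 times differed in 1517 higher and 1260 lower on day 7.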

How the results depend on the processing

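The counts of genes higher and lower on day 7 than in untreated skin were 700 and 448 at 2-fold or more and 350 and 183 when limma's treat tested against 1.5-fold. Against 24 h they were 597 and 487, and 486 and 362. With each array left out in turn, the counts against untreated skin ranged from 1180 to 1606 higher and from 1148 to 1943 lower, the highest in both cases without untreated replicate 5. Against 24 h they ranged from 1396 to 1767 and from 1187 to 1373, the highest without 24 h replicate 2. Under the other alternatives each of the 4 counts was within 1.5 times its value. The 5′ level difference was 0.13 to 0.49 with each array left out. In exact permutation tests it was 0.45 (p = 0.0317) without untreated replicate 2 and 0.49 (p = 0.0159) without untreated replicate 3, and 0.13 (p = 0.119) without untreated replicate 5. With the 5′ level as a covariate, Shh gave 0.94 and Tyr 0.92 in place of -0.93 and -0.82; the cause was not tested. For the named genes against untreated skin, leaving out arrays kept direction and side of the threshold in 1513 cases, ended a call in 40 and made one in 7, while the other alternatives kept both in 1610 cases, ended a call in 66, made one in 17 and turned the direction in 2, those of Shh and Tyr. The lesser direction of a list often held 1 gene that came or went with 1 array, as in the chemokine list (0 to 1 lower) and the macrophage list (1 to 2 lower). No paired analysis was possible because replicate numbers follow accession order only and the labels do not name the animals.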
